A study of Mus musculus with 16 samples.

Results

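The genes described here are 36 mouse genes of folding, quality control and stress sensing in the endoplasmic reticulum (ER), out of 56748 genes in the deposited counts. They were taken by symbol from a list drawn up by function. The list was chosen by a rule that named *Hspa5* and *Creld2* for a rise already known from these samples, so their values are given without a test and stay out of the counts of called genes. For the other 34 the groups were compared gene by gene. By role, the list holds 8 chaperones and cochaperones, 2 lectin chaperones, 8 genes of disulfide exchange and oxidation, 12 genes of ER-associated degradation, 4 genes of stress sensing (the sensors *Atf6*, *Ern1* and *Eif2ak3* and the transcription factor *Xbp1*) and 2 subunits of the translocon.

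Murine TM4 cells, an established line with Sertoli-like features, were transfected 24 h after seeding, with 2.5 µg of plasmid in each well, and lysed after a further 24 h. The plasmid carried *gdf6Y*, the male-determining gene of the turquoise killifish (5 samples), its mutant variant *gdf6Ydel9* with an in-frame deletion in the prodomain (*del9*, 5 samples), or no insert (empty vector, EV, 6 samples). All groups share the TM4 cells and the lipid transfection, so EV samples are transfected cells and not untreated ones. Reads were counted per gene after removal of PCR duplicates, with 21486850 to 26444903 counted reads per sample. A normalized count is the count of a gene divided by the library size of its sample, as adjusted by the TMM method, and multiplied by the mean library size of the 16 samples. A log2 fold change is the log2 of the ratio between groups in the fit, and a gene was called where its adjusted p was below 0.05.

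Proteins that enter the secretory pathway fold in the ER with the help of *Hspa5* (BiP) and its cochaperones, of the lectins calnexin and calreticulin and of disulfide isomerases. Proteins that do not fold are taken back to the cytosol and degraded. A surplus of unfolded protein is sensed by *Atf6*, which activates chaperone genes, by *Ern1* (Ire1), which splices *Xbp1* mRNA and thereby turns on degradation genes, and by *Eif2ak3* (PERK), which slows translation and raises *Atf4* and its targets, such as *Ddit3* (CHOP). Growth factors of the Gdf family are secreted and fold in the ER as precursors with a prodomain. The comparisons with EV therefore addressed whether *Hspa5* and *Creld2* rose together with mRNA of the sensors and of the targets of other arms. The comparison of *gdf6Y* with *del9* addressed whether the rise depended on the intact gene.

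The labelled cell type was checked against marker genes. Of 13 Sertoli cell markers, 5 had at least 10 counts in every sample, among them *Gata4* and *Kitl*, and *Wt1* and *Dmrt1* had no count in any sample. Of 5 markers of myoid cells and fibroblasts, 4 had at least 10 counts in every sample, with 44856 to 56062 counts of *Col1a1*. The summed normalized count of the Sertoli cell markers was 1700 to 1783 with EV, 1522 to 1633 with *gdf6Y* and 1594 to 1749 with *del9*, and that of the myoid and fibroblast markers was 59620 to 63760, 57410 to 64700 and 56490 to 61770. Single markers were called too: *Gata4* was lower with *gdf6Y* than with EV (-0.20, adjusted p = 9.98e-05), *Tagln* was higher with *gdf6Y* (0.14, adjusted p = 0.000141) and *del9* (0.12, adjusted p = 0.000484), and *Pdgfrb* was lower with *del9* (-0.25, adjusted p = 0.00256). *Fst*, of the granulosa cell markers, was higher with *del9* than with EV (0.44, adjusted p = 2.13e-18) and lower with *gdf6Y* than with *del9* (-0.29, adjusted p = 2.26e-06). The part of these markers in the results below was not tested. Markers of germ cells and macrophages summed to at most 5.46 and 10.95 normalized counts in any sample and those of Leydig cells to at most 35.8, while those of granulosa cells summed to 398 to 562 with EV, 388 to 614 with *gdf6Y* and 528 to 725 with *del9*. The granulosa sum was nearly all *Fst*: *Foxl2* and *Cyp19a1* had 0 counts in every sample and *Wnt4* at most 5. The plasmids themselves were not counted, since *gdf6Y* is a killifish gene, so the labels were not checked by the insert. The *gdf6Y* sample with replicate number 1 stood apart from the other 4: the chi-square of their counts, per degree of freedom, was 7.6 to 11.5 in its pairs and 1.41 to 6.48 in all other pairs within groups.

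Sequence features were read from the RefSeq promoter windows (GRCm38.p6; 250 bases before to 50 bases after each annotated start), which were found for 31 of the 36 genes. The ER stress response elements are named for the response of genes such as these. Their shares among these genes are therefore a description and no independent support for the list. The ER stress response element, searched on both strands as CCAAT, 9 bases of any kind and CCACG, was in the windows of 10 of these 31 genes (32.3%) and of 37 of all 27025 genes in the table (0.137%). It occurred in *Calr*, *Canx*, *Creld2*, *Derl3*, *Dnajc3*, *Ero1b*, *Hsp90b1* (2 copies), *Hspa5*, *Pdia6* and *Syvn1*, so the 10 include *Hspa5* and *Creld2*, named by the rule for their rise. The ER stress response element II, searched as ATTGG, 1 base of any kind and CCACG, was in the windows of *Dnajb11* and *Herpud1* (6.45%) and of 12 of all genes (0.0444%). The core of the unfolded protein response element, TGACG followed directly by TGG, was found in 0 of the 31 windows and in 0.714% of all genes.

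The following stretches show these elements in *Hspa5*, *Creld2* and the 4 called genes that have one. Each is printed 5′ to 3′ on the strand of its gene, with the element in capitals. For *Hspa5* (chr2:34661852-34662101, plus strand) and *Creld2* (chr15:88703599-88703848, plus strand) the 250 bases before the start are shown. The stretches of *Herpud1* (chr8:95112975-95113045, plus strand), *Hsp90b1* (chr10:86541367-86541550, minus strand) and *Calr* (chr8:85573674-85573752, minus strand) hold the element with up to 30 bases on each side. That of *Dnajb11* (chr16:22676593-22676621, plus strand) runs across the start, since its element lies 8 to 18 bases into the transcript. Positions are those of exact matches of the windows to GRCm39, the build of the counts.
Hspa5: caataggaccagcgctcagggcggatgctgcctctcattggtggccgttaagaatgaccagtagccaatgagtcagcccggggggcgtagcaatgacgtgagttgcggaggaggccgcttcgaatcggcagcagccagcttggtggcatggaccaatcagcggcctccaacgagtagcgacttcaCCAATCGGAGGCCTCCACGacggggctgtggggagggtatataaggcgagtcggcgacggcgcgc
Creld2: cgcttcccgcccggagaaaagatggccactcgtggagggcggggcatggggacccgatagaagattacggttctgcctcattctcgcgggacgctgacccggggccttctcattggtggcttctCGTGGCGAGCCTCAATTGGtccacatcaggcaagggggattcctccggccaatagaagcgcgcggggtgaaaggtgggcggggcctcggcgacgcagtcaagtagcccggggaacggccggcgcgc
Herpud1: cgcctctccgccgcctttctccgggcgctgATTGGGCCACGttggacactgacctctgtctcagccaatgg
Hsp90b1: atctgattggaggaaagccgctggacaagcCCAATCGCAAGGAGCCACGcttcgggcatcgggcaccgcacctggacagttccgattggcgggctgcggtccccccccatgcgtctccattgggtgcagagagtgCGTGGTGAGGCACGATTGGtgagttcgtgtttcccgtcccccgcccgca
Dnajb11: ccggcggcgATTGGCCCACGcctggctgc
Calr: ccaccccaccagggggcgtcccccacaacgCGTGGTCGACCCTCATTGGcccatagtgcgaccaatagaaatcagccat
The element of *Hspa5* ends 47 bases before the RefSeq start, and that of *Herpud1* 42 bases before it. Starts differ between RefSeq and the GRCm39 annotation used for gene positions below. There *Hspa5* begins at 34661982, so its element lies within the annotated gene. The same holds for the *Hsp90b1* copy nearer to the RefSeq start, since that gene reaches 86541446. In *Creld2* and *Calr* the element reads on the opposite strand and lies 108 and 144 bases before the start, and *Hsp90b1* has 1 copy on each strand, 194 and 89 bases before it. A match of letters is a description and not a bound site.

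In EV samples the 36 genes took 1.14% ± 0.022 (SD, n = 6) of all counts, in *gdf6Y* samples 1.19% ± 0.0319 (SD, n = 5) and in *del9* samples 1.18% ± 0.039 (SD, n = 5). Without *Hspa5* and *Creld2* the ranges were 0.951% to 0.996%, 0.963% to 1.03% and 0.952% to 1.03%, which overlapped. The 8 chaperones and cochaperones, *Hspa5* included, took 0.395% to 0.417% of the counts of EV samples, 0.423% to 0.45% of *gdf6Y* samples and 0.428% to 0.462% of *del9* samples. These shares include *Hspa5*, chosen for its rise. Without it, the other 7 took 0.236% to 0.247%, 0.245% to 0.265% and 0.245% to 0.268%, and the ranges with either insert overlapped with the EV range. For the genes of ER-associated degradation the shares were 0.0893% to 0.0934%, 0.0882% to 0.0931% and 0.0883% to 0.0947%, which overlapped between all groups. The sensors and *Xbp1* took 0.0484% to 0.0506% with EV, 0.0447% to 0.049% with *gdf6Y* and 0.0463% to 0.0485% with *del9*.

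Per kilobase of the canonical transcript, the most abundant of the genes was *Calr* with 15470 ± 309 normalized counts per kb (SD, n = 6) with EV, followed by *Hsp90b1* with 14410 ± 378 per kb. *P4hb* and *Hspa5* came next with 8325 and 8235 per kb, and their samples overlapped. *Xbp1* and the sensors were less abundant than these: *Xbp1* had 1398, *Atf6* 705, *Ern1* 468 and *Eif2ak3* 172 normalized counts per kb. *Ero1b* (54.9 per kb) and *Creld1* (25.5 per kb) were lowest among the genes with counts. *Derl3*, a derlin of ER-associated degradation, had 0 counts in all 16 samples, which allows up to 0.14 CPM (counts scaled to the library total) in the smallest library, counting error only, and it was not tested. From *Creld2* down to *Ero1a*, through *Pdia4*, *Sec61b* and *Xbp1*, each gene overlapped with the next in EV samples.

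**Figure D1:**
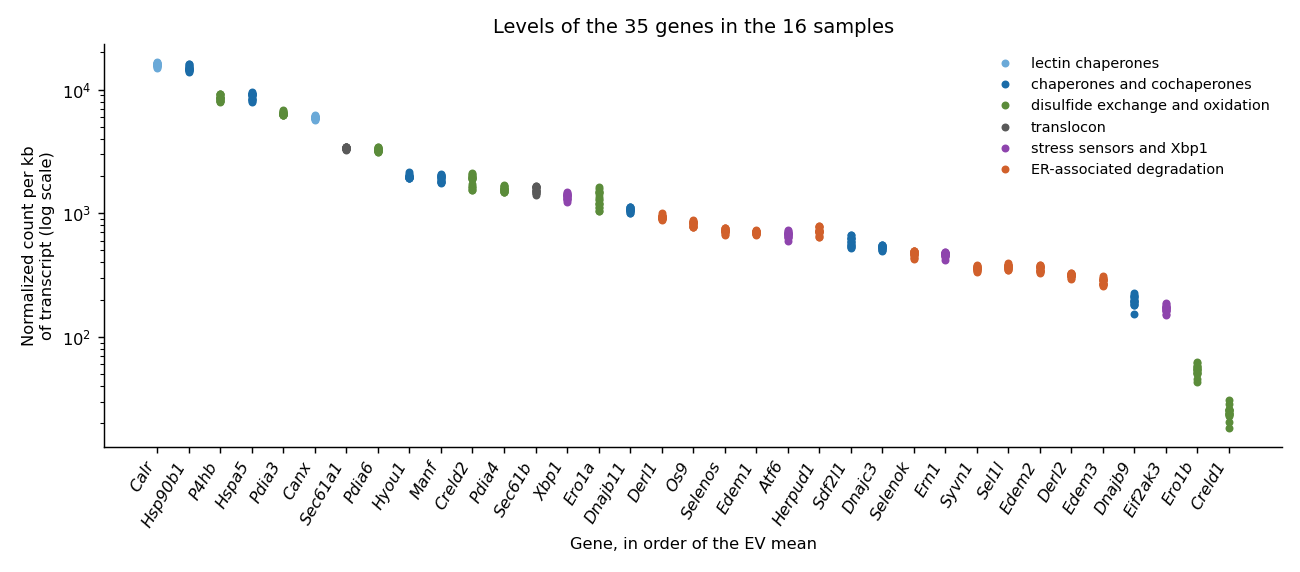
Levels of the 35 genes with counts, as normalized count per kb of the canonical transcript on a log axis, in order of the EV mean. Each point is 1 of the 16 samples and colours give the role of the gene. *Calr* and *Hsp90b1* are highest, and most genes differ more from each other than between samples.

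*Hspa5* and *Creld2*, whose rise was known when the list was drawn up, had the following values. Here and below the position of a gene is that of its GRCm39 annotation, over all exons and introns. Normalized counts of *Hspa5*, the main ER chaperone (chr2:34661982-34668880, plus strand), were 39110 to 41814 (median 41166) in EV samples, 45056, 44051, 43884, 45792 and 45595 in *gdf6Y* samples and 47734, 46008, 45690, 46196 and 45627 in *del9* samples. All samples with an insert lay above all EV samples. The means were 40790 ± 1085 (SD, n = 6) in EV, 44880 ± 874 (SD, n = 5) in *gdf6Y* and 46250 ± 861 (SD, n = 5) in *del9* samples. This gave a log2 fold change of 0.14 ± 0.023 (SE) for *gdf6Y* and of 0.18 ± 0.023 for *del9* against EV, or 10.2% and 13.6% more, and of -0.039 ± 0.027 for *gdf6Y* against *del9*.

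*Creld2*, a disulfide isomerase-like protein of the ER (chr15:88703795-88710890, plus strand), was counted at 2152 to 2416 (median 2275) with EV, at 2737, 2656, 2659.9, 2688 and 2718 with *gdf6Y* and at 2921, 2781, 2834, 2994 and 2733 with *del9*. Again no sample with an insert fell into the EV range, while the ranges of *gdf6Y* and *del9* met. The means were 2267 ± 98 (SD, n = 6), 2692 ± 35.4 (SD, n = 5) and 2853 ± 105 (SD, n = 5). The log2 fold change was 0.25 ± 0.031 for *gdf6Y* and 0.33 ± 0.03 for *del9* against EV (18.9% and 26.1% more) and -0.079 ± 0.034 for *gdf6Y* against *del9*. Its paralog *Creld1* had 79.4 ± 8.92 (SD, n = 6), 76.4 ± 12.1 (SD, n = 5) and 72.8 ± 5.58 (SD, n = 5) normalized counts in the 3 groups.

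**Figure D2:**
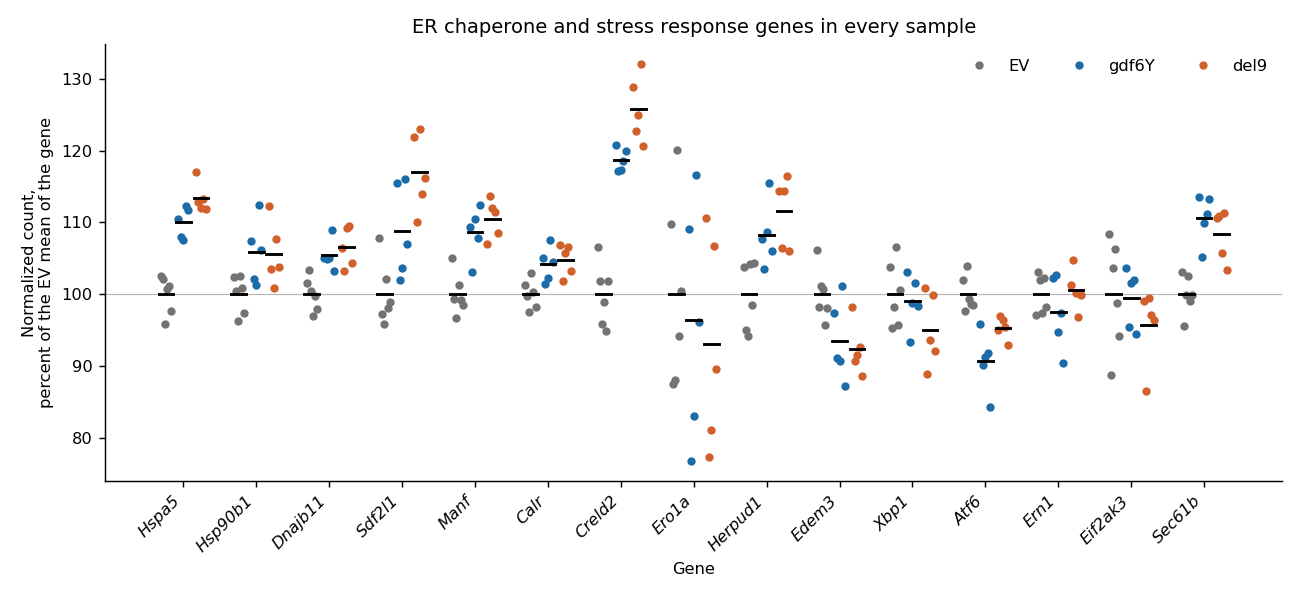
Normalized counts in every sample as a percentage of the EV mean of the gene, for *Hspa5*, *Creld2*, the 10 called genes and the other sensing genes. Points are samples and black bars are group means. *Hspa5* and *Creld2* with either insert lie above all EV samples, *Xbp1*, *Ern1* and *Eif2ak3* overlap between the groups, and *Ero1a* has a wide spread in each group.

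Of the other 34 genes, 33 had counts and were tested with edgeR's quasi-likelihood test and Benjamini-Hochberg adjustment over all genes, and 10 were called in at least 1 comparison. With *gdf6Y* against EV, 4 were higher (*Hsp90b1*, *Manf*, *Herpud1* and *Sec61b*) and 1 was lower (*Atf6*), where 1.7% of all 26316 genes tested were called higher and 3.38% lower. With *del9* against EV, 7 were higher (*Hsp90b1*, *Dnajb11*, *Sdf2l1*, *Manf*, *Calr*, *Herpud1* and *Sec61b*) and 2 were lower (*Ero1a* and *Edem3*), where 4.82% of 26226 genes were called higher and 4.43% lower (1263 and 1162 genes, which became 863 and 1492 when library totals replaced the TMM factors). Between *gdf6Y* and *del9*, 0 were called in either direction by edgeR, and 0 by DESeq2, with 4 at an unadjusted p below 0.05 (*Dnajb9*, *Sdf2l1*, *Selenos* and *Atf6*). In that comparison 0.599% of 25878 genes were called higher and 0.41% lower, and 7.88% had an unadjusted p below 0.05. Calls favour abundant genes: of genes with a mean normalized count of at least 500, as 30 of the 33 had in every group, 5.22% were called higher and 10.5% lower with *gdf6Y* against EV and 15.1% higher and 10.7% lower with *del9* against EV, so the share among the 33 is to be read against these. Between *gdf6Y* and *del9*, 1.05% of such genes were called higher and 1.25% lower. Without *gdf6Y* replicate 1, which stood apart, the same 4 genes were higher with *gdf6Y* and *Edem3* and *Ero1a* joined *Atf6* as lower (3 genes). Without *gdf6Y* replicate 4, 2 were higher (*Manf* and *Sec61b*) and 3 were lower.

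The comparisons of *gdf6Y* and of *del9* with EV share the EV samples and are given side by side. The median log2 fold change of the 33 genes was 0.017 for *gdf6Y* and 0.029 for *del9* against EV, where the median of all genes tested was -0.0021 and -0.0054. For genes with a mean normalized count of at least 500 the median was 0.0032 and 0.0139. Between *gdf6Y* and *del9* the median of the 33 genes was 0.0054, with all 33 genes between -0.099 and 0.12, and that of the abundant genes was -0.0094. The largest called difference against EV was 0.23 on the log2 scale, for *Sdf2l1* with *del9*. In bulk RNA, a larger change in a part of the cells and a small change in all of them cannot be told apart, nor can fewer cells of a type and less RNA per cell. The labels do not say whether samples of a group came from separate cultures, so p-values speak for these samples only. In the main fit they draw on the dispersion trend over all genes and hardly on a gene's own spread between samples.

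**Figure D3:**
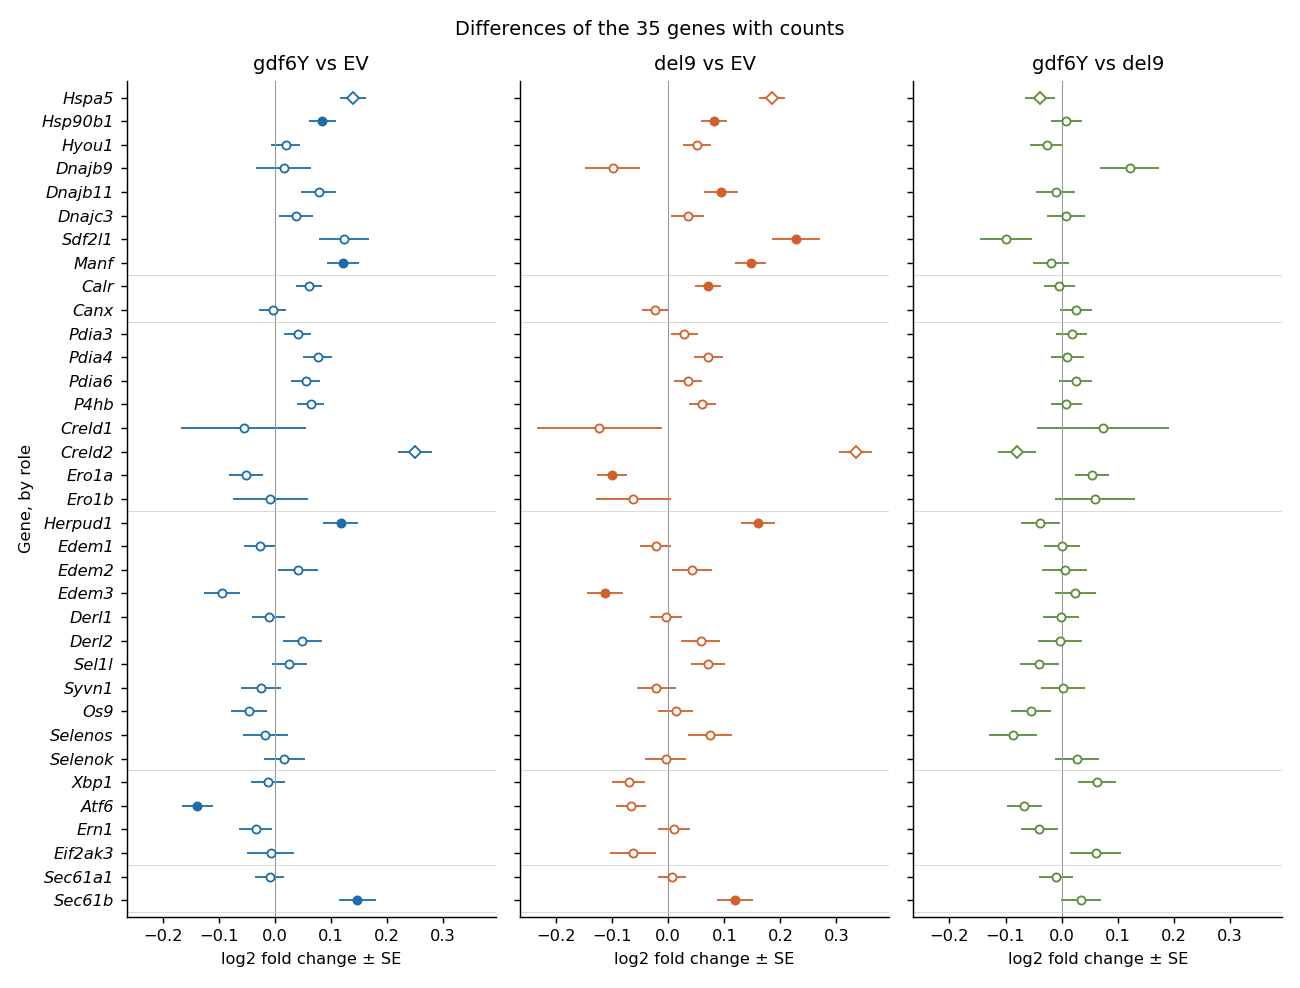
Log2 fold changes with SE of the 35 genes with counts in the 3 comparisons, grouped by role with lines between roles. Filled circles are called (adjusted p below 0.05), open circles are not, and diamonds are *Hspa5* and *Creld2*, which were not tested. Filled points lie to the right of 0 mostly among the chaperones, and none is filled for *gdf6Y* vs *del9*.

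Among the 7 tested chaperones and cochaperones, 2 rose with *gdf6Y* and 4 with *del9*, and none fell. *Hsp90b1* (Grp94), the Hsp90 of the ER (chr10:86526073-86541446, minus strand), had normalized counts of 39239 to 41806 (median 41061) with EV, 43810, 41621, 41314, 45839 and 43297 with *gdf6Y* and 45773, 42200, 41134, 43891 and 42326 with *del9*. Here 3 of 5 *gdf6Y* samples and 4 of 5 *del9* samples lay above all EV samples. The means were 40770 ± 1069 (SD, n = 6), 43180 ± 1830 (SD, n = 5) and 43060 ± 1805 (SD, n = 5). The log2 fold change was 0.084 ± 0.024 (adjusted p = 0.0111) with *gdf6Y* and 0.082 ± 0.023 (adjusted p = 0.00803) with *del9*. The first call was lost without *gdf6Y* replicate 4 (log2 fold change 0.066, adjusted p = 0.0892). The second was lost without low genes (filterByExpr, adjusted p = 0.058) and without *del9* replicate 1 (log2 fold change 0.056, adjusted p = 0.115). In the annotation used here for gene positions, 2 genes on its strand overlap with it. Reads that overlap several genes were not counted, but the authors used another annotation release, in which this overlap was not checked.

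*Manf*, a secreted ER protein that binds *Hspa5* (chr9:106715511-106769727, minus strand), was at 3938 to 4274 (median 4040.5) with EV, 4453, 4198, 4499, 4392 and 4575 with *gdf6Y* and 4354, 4629, 4559, 4536 and 4418 with *del9*. All *del9* samples and 4 of 5 *gdf6Y* samples exceeded the EV range. With means of 4071 ± 116 (SD, n = 6), 4423 ± 143 (SD, n = 5) and 4499 ± 111 (SD, n = 5), it rose by 0.12 ± 0.028 (adjusted p = 0.00109) and 0.15 ± 0.028 (adjusted p = 7.07e-06) on the log2 scale. Both calls were kept in all 21 alternative fits. The correction for gene length took *Manf* as 12163 bases (all annotated exons), against 2247 in its canonical transcript. For this gene it therefore cannot show whether length mattered. In the annotation used here, part of *Manf* is shared with *Rbm15b* on the same strand. Whether the release used for counting has this overlap was not checked.

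*Sdf2l1*, a cochaperone in the *Hspa5* complex (chr16:16948002-16950252, minus strand), had 582 to 654 (median 598) normalized counts with EV, 701, 619, 629, 705 and 649 with *gdf6Y* and 739.7, 668, 747, 691 and 705 with *del9*. The *del9* samples all lay above the EV samples, and the *gdf6Y* samples overlapped with both. The means were 607 ± 26.4 (SD, n = 6), 660.4 ± 40.2 (SD, n = 5) and 710.1 ± 33.1 (SD, n = 5). It rose with *del9* by 0.23 ± 0.043 (adjusted p = 1.1e-05), and was at 0.12 ± 0.045 (adjusted p = 0.0898) with *gdf6Y*. The difference between *gdf6Y* and *del9* was -0.099 ± 0.047 (adjusted p = 0.528).

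*Dnajb11* (ERdj3), a J protein that hands clients to *Hspa5* (chr16:22676587-22698384, plus strand), was at 2012 to 2146 (median 2078) with EV, 2181, 2176, 2179, 2262 and 2142 with *gdf6Y* and 2209.6, 2144, 2267, 2272 and 2167 with *del9*. In both groups with an insert 4 of 5 samples lay above all EV samples. The means were 2076 ± 49.3 (SD, n = 6), 2188 ± 44.6 (SD, n = 5) and 2212 ± 57.6 (SD, n = 5). The log2 fold change was 0.094 ± 0.031 with *del9* (adjusted p = 0.0292) and 0.078 ± 0.032 with *gdf6Y* (adjusted p = 0.165). The *del9* call was lost in 9 of 21 alternatives, among them the correction for gene length (adjusted p = 0.304) and the fits without EV replicates 4, 5 or 6 or *del9* replicates 3 or 4 (adjusted p = 0.0537 to 0.0992). The other 3 chaperones, *Hyou1*, *Dnajb9* and *Dnajc3*, were not called, with log2 fold changes of 0.016 to 0.037 for *gdf6Y* and -0.0995 to 0.052 for *del9* against EV. Of these, *Dnajb9* (ERdj4), a standard target of spliced *Xbp1*, was at 495 ± 27.6 (SD, n = 6), 499 ± 44.3 (SD, n = 5) and 461 ± 60.9 (SD, n = 5). Without *del9* replicate 4, *Dnajb9* was called lower with *del9* than with EV (-0.16, adjusted p = 0.0269).

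Of the 2 lectin chaperones, *Calr* was called and *Canx* was not. *Calr* (calreticulin), the soluble lectin of the calnexin cycle (chr8:85567946-85573667, minus strand), had 34499 to 36434 (median 35404) normalized counts with EV, 37173, 35904, 36213, 38055 and 36979 with *gdf6Y* and 37796, 36024, 37419, 37701 and 36552 with *del9*. The upper samples of both groups with an insert lay above the EV range, 3 of 5 for *gdf6Y* and 4 of 5 for *del9*. The means were 35390 ± 707 (SD, n = 6), 36860 ± 847 (SD, n = 5) and 37100 ± 776 (SD, n = 5). The difference was 0.071 ± 0.023 (adjusted p = 0.0321) for *del9* and 0.06 ± 0.024 (adjusted p = 0.136) for *gdf6Y*. The *del9* call was lost in 12 of 21 alternatives, 7 of them with 1 sample left out (EV replicates 2, 3, 5 or 6 or *del9* replicates 1, 3 or 4, adjusted p = 0.0548 to 0.0901), and with the correction for gene length the difference was 0.036 (adjusted p = 0.439). *Canx* (calnexin), the membrane-bound lectin, was at -0.0042 ± 0.024 for *gdf6Y* and -0.024 ± 0.024 for *del9*.

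Of the 7 tested genes of disulfide exchange and oxidation, none was called higher against EV and *Ero1a* was called lower with *del9*. *Ero1a*, the oxidase that recharges disulfide isomerases (chr14:45520541-45556228, minus strand), was at 5239.8 to 7189.7 (median 5823) with EV, 6529, 4596, 4969.5, 6984 and 5758 with *gdf6Y* and 6626, 4625, 4857, 6390.4 and 5358 with *del9*. The groups overlapped over nearly their whole range. Means of 5987 ± 773 (SD, n = 6), 5767 ± 1009 (SD, n = 5) and 5571 ± 899 (SD, n = 5) gave a log2 fold change of -0.10 ± 0.027 (adjusted p = 0.0034) for *del9* against EV. The SE of the fit is smaller than this spread, since over 26226 genes the fit drew each gene's dispersion to the common trend (prior degrees of freedom infinite). It used a quasi-dispersion of 0.729 for *Ero1a*, whose own was 16.6. With filterByExpr, where the prior degrees of freedom were 10.9, the adjusted p was 0.425, and with DESeq2 it was 0.601, so under these the difference did not exceed the spread between samples. The call was also lost without EV replicates 1 or 4 or *del9* replicates 2 or 3, with log2 fold changes of -0.041 to -0.073. It was kept in 12 of 21 alternatives, among them the replicate number as a block.

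The other 6 genes of this role, the isomerases *Pdia3*, *Pdia4*, *Pdia6* and *P4hb* with *Creld1* and the oxidase *Ero1b*, had log2 fold changes of -0.056 to 0.076 for *gdf6Y* and -0.12 to 0.071 for *del9* against EV. *Pdia4* came closest to a call, with 0.076 ± 0.026 (adjusted p = 0.0679) and 0.071 ± 0.026 (adjusted p = 0.0546). The 4 isomerases had positive values in both comparisons. *Pdia4* was called higher in 6 of 21 alternatives in each comparison, among them DESeq2 for *gdf6Y* (adjusted p = 0.0276), and *P4hb* in 3 for *gdf6Y* and 4 for *del9*.

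Among the 11 tested genes of ER-associated degradation, *Herpud1* rose with both inserts and *Edem3* fell with *del9*. *Herpud1*, a membrane protein that organizes the retrotranslocation complex (chr8:95113022-95123141, plus strand), was counted at 1996 to 2212 (median 2144) with EV, 2283, 2194, 2302, 2448 and 2248 with *gdf6Y* and 2425, 2255, 2426, 2468 and 2247 with *del9*. Every *del9* sample and 4 of 5 *gdf6Y* samples exceeded the EV samples. The means were 2120 ± 100 (SD, n = 6), 2295 ± 94.8 (SD, n = 5) and 2364 ± 105 (SD, n = 5). It was higher by 0.12 ± 0.032 (adjusted p = 0.00774) and by 0.16 ± 0.031 (adjusted p = 1.07e-05) on the log2 scale. The *gdf6Y* call was lost with the correction for gene length (adjusted p = 0.054) and without *gdf6Y* replicate 4 (adjusted p = 0.0619), and the *del9* call in none of 21 alternatives.

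*Edem3*, which trims mannose from misfolded glycoproteins (chr1:151631057-151698085, plus strand), was at 1882 to 2087 (median 1955) with EV, 1916, 1793, 1784, 1989 and 1714 with *gdf6Y* and 1929.9, 1782, 1798, 1822 and 1742 with *del9*. Below all EV samples were 3 of 5 *gdf6Y* samples and 4 of 5 *del9* samples. With means of 1966 ± 70.6 (SD, n = 6), 1839 ± 111 (SD, n = 5) and 1815 ± 70.5 (SD, n = 5), the log2 fold change was -0.11 ± 0.032 (adjusted p = 0.00676) for *del9* and -0.095 ± 0.033 (adjusted p = 0.066) for *gdf6Y*. The other 9 tested genes, among them *Edem1*, the derlins *Derl1* and *Derl2* and the ubiquitin ligase complex of *Sel1l* and *Syvn1*, were not called, with -0.047 to 0.049 for *gdf6Y* and -0.022 to 0.075 for *del9*.

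None of the sensors, nor *Xbp1*, was called higher in any of the 3 comparisons. These are mRNA levels, and whether the sensor proteins were active was not measured. *Atf6*, the membrane-bound factor that activates chaperone genes after cleavage in the Golgi (chr1:170532026-170696208, minus strand), was counted at 5191 to 5528 (median 5264) with EV, 5098, 4795, 4854, 4884 and 4484 with *gdf6Y* and 5054, 5153, 5124, 5070.4 and 4941 with *del9*. All *gdf6Y* and all *del9* samples lay below all EV samples. The means were 5317 ± 129.6 (SD, n = 6), 4823 ± 221 (SD, n = 5) and 5068 ± 81.5 (SD, n = 5). *Atf6* fell with *gdf6Y* (-0.14 ± 0.028, adjusted p = 6.14e-05), a call kept in all 21 alternatives. With *del9* it was at -0.067 ± 0.027 (adjusted p = 0.109), but it was called lower in 5 of 21 alternatives, among them DESeq2 (-0.072, adjusted p = 0.016) and filterByExpr (-0.074, adjusted p = 0.0308). The difference between *gdf6Y* and *del9* was -0.066 ± 0.032 (adjusted p = 0.535).

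*Xbp1* mRNA was at 2622 to 2932 (median 2735) with EV, 2837, 2569.9, 2717, 2794 and 2707 with *gdf6Y* and 2776, 2447, 2574, 2747 and 2535 with *del9*, with means of 2752 ± 124 (SD, n = 6), 2725 ± 102 (SD, n = 5) and 2616 ± 142 (SD, n = 5). The groups overlapped, with -0.013 ± 0.03 (adjusted p = 0.873) for *gdf6Y* and -0.071 ± 0.03 (adjusted p = 0.129) for *del9* against EV. In some alternatives *Xbp1* was called lower with *del9*. These were library totals (adjusted p = 0.0361), the replicate block with the correction for gene length (0.0272), and the fits without EV replicate 2 (0.049) or *del9* replicate 1 (0.0213). Counts per gene do not separate spliced from unspliced *Xbp1*, so splicing by *Ern1* was not measured. *Ern1* had means of 3277 ± 89.4 (SD, n = 6), 3194 ± 171 (SD, n = 5) and 3295 ± 93.7 (SD, n = 5), and its log2 fold changes against EV were -0.035 ± 0.03 (adjusted p = 0.57) and 0.011 ± 0.029 (adjusted p = 0.871). *Eif2ak3* had means of 785 ± 59.6 (SD, n = 6), 780.3 ± 32.9 (SD, n = 5) and 751 ± 41.7 (SD, n = 5), with -0.0081 ± 0.042 (adjusted p = 0.951) and -0.063 ± 0.041 (adjusted p = 0.424). Both genes overlapped between all groups.

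Of the translocon, the channel through which proteins enter the ER, *Sec61b* was called and *Sec61a1* was not. *Sec61b*, a small subunit (chr4:47474614-47483864, plus strand), was at 1726 to 1862 (median 1804) with EV, 2051, 1901, 1985, 2008 and 2045 with *gdf6Y* and 1999, 2004, 1909.8, 2009.5 and 1866 with *del9*. No sample with an insert fell into the EV range. With means of 1806 ± 48.9 (SD, n = 6), 1998 ± 60.6 (SD, n = 5) and 1958 ± 65.4 (SD, n = 5), it was higher by 0.15 ± 0.032 (adjusted p = 0.000396) and 0.12 ± 0.032 (adjusted p = 0.00401). With the correction for gene length the *del9* difference was 0.062 (adjusted p = 0.271) and the *gdf6Y* difference 0.098 (adjusted p = 0.0429). *Sec61a1*, the pore subunit, was at -0.0098 ± 0.026 and 0.0062 ± 0.025.

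Set beside the promoter elements printed above, 9 tested genes had an ER stress response element of either kind in their window, and 4 of them were called higher with *del9* (*Hsp90b1*, *Dnajb11*, *Calr* and *Herpud1*) and 2 with *gdf6Y* (*Hsp90b1* and *Herpud1*). Of the 19 tested genes whose windows held neither, 2 were called higher with *del9* (*Sdf2l1* and *Sec61b*) and 1 with *gdf6Y* (*Sec61b*). The median log2 fold change for *del9* against EV was 0.035 with an element and 0.013 without, and for *gdf6Y* against EV it was 0.054 and 0.016. Among genes with an element, values for *del9* ranged from -0.063 for *Ero1b* to 0.16 for *Herpud1*, so genes with an element lay on both sides of 0. These counts are a description of few genes.

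Around these genes, 145 others of the same pathways were read from 7 lists. With *gdf6Y* against EV 3 of them were called higher and 12 lower of 142 with counts, and with *del9* 8 and 19 of 143. These are to be read against the shares of abundant genes called, given above. The 8 became 4 without *del9* replicate 5 and 5 without EV replicate 6. Between *gdf6Y* and *del9*, *Nupr1* was higher and *Atf6b* was lower, and no other was called. DESeq2 called 6 higher and 10 lower with *gdf6Y*, 11 and 18 with *del9*, and 0 of either kind between *gdf6Y* and *del9*.

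The list closest to a full stress response holds 14 genes of the PERK and *Atf4* arm, of which *Ddit3* rose and *Chac1* and *Ddit4* fell with both inserts, and *Nupr1* fell with *del9*. *Ddit3* (CHOP), the proapoptotic factor of this arm, was at 907 with EV, 985 with *gdf6Y* and 992 with *del9* in mean normalized counts, with log2 fold changes of 0.12 ± 0.039 (adjusted p = 0.0419) and 0.13 ± 0.038 (adjusted p = 0.00939). With DESeq2 its adjusted p was 0.067 for *gdf6Y* and 0.0403 for *del9*. The *gdf6Y* call was lost in 7 of the 11 fits with 1 sample left out (adjusted p up to 0.147) and the *del9* call without EV replicate 5 or *del9* replicates 1 or 4 (up to 0.073). *Atf4* itself was at 0.028 ± 0.026 and 0.025 ± 0.025 and was not called, nor were *Trib3* (-0.013 and -0.037), *Asns* (-0.051 and -0.041) and *Atf3* (0.11 and 0.21), all chosen here as well-known members of the arm after their values were seen. *Chac1*, a glutathione-degrading target of this arm, was lower by -0.19 ± 0.034 (adjusted p = 5.82e-06) and -0.24 ± 0.033 (adjusted p = 8.71e-11). With DESeq2 its adjusted p was 0.0148 and 0.0183. *Ddit4*, an inhibitor of mTORC1 that also responds to other stresses, was at -0.14 ± 0.033 (adjusted p = 0.0018) and -0.15 ± 0.029 (adjusted p = 3.44e-05), but with DESeq2 its adjusted p was 0.495 and 0.391, and without EV replicate 1 neither was called. *Nupr1*, a stress-induced chromatin protein, was at -0.22 ± 0.036 (adjusted p = 1.75e-07) for *del9* against EV and 0.15 ± 0.041 (adjusted p = 0.0309) for *gdf6Y* against *del9*, where DESeq2 gave 0.121 and 0.968. Without *gdf6Y* replicates 1 or 4 or *del9* replicates 2, 3 or 5 the latter call was lost as well (adjusted p up to 0.576).

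Among 17 other regulators of the response and substrates of Ire1 decay, none rose against EV. *Creb3l2*, a relative of *Atf6* that drives secretory genes, fell with both inserts (-0.16 ± 0.029, adjusted p = 9.41e-06, and -0.093 ± 0.027, adjusted p = 0.0113), the latter call lost without EV replicate 3 or *del9* replicate 5 (adjusted p up to 0.11). *Col6a1*, a substrate of Ire1 decay, fell with *del9* (-0.11 ± 0.027, adjusted p = 0.000978) and was at -0.073 ± 0.028 (adjusted p = 0.122) with *gdf6Y*. *Eif2s1*, the translation factor that PERK phosphorylates, was at 0.07 (adjusted p = 0.143) and 0.075 (adjusted p = 0.0517). *Atf6b*, the paralog of *Atf6*, was lower with *gdf6Y* than with *del9* (-0.13 ± 0.035, adjusted p = 0.0309), which DESeq2 did not call (adjusted p = 0.079) and which was lost in 6 of 10 fits with 1 sample left out. *Creb3* and *Mbtps2* followed in that comparison, at 0.097 (adjusted p = 0.565) and -0.039 (adjusted p = 0.654).

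Among 27 other folding genes, *Tmx4*, a membrane thioredoxin, fell with *gdf6Y* (-0.14 ± 0.033, adjusted p = 0.00135), and the next, *Ppib* and *Uggt1*, were at 0.074 (adjusted p = 0.0963) and -0.064 (adjusted p = 0.205). With *del9*, *Fkbp11* and *Mogs* rose and *Fkbp14*, *Tmx3* and *Tmx4* fell, led by *Fkbp14* (-0.22 ± 0.047, adjusted p = 0.000113), *Tmx4* (-0.13 ± 0.032, adjusted p = 0.00224) and *Fkbp11* (0.11 ± 0.032, adjusted p = 0.00957). With DESeq2 the adjusted p of *Fkbp14* was 0.186. The calls of *Fkbp11*, *Mogs* and *Tmx3* were lost with the correction for gene length, and that of *Fkbp11* also without *del9* replicate 3 (adjusted p = 0.2). Among 28 genes of ER entry and glycosylation, *Spcs3*, of the signal peptidase, fell with both inserts (-0.13 ± 0.026, adjusted p = 4.88e-05, and -0.095 ± 0.026, adjusted p = 0.00461), and *Ssr3*, of the translocon-associated complex, fell with *del9* (-0.11 ± 0.024, adjusted p = 0.000376). Next with *gdf6Y* were *Ssr2* (0.068, adjusted p = 0.182) and *Ssr4* (0.078, adjusted p = 0.196), and with *del9* *Sec63* (-0.072, adjusted p = 0.0763).

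Among 19 other genes of ER-associated degradation, *Ufd1* rose (0.16 ± 0.039, adjusted p = 0.00249) and *Marchf6*, a ubiquitin ligase of the ER, fell with *gdf6Y* (-0.11 ± 0.029, adjusted p = 0.00408), and *Fam8a1* was at -0.064 (adjusted p = 0.34). With *del9*, *Marchf6* (-0.12 ± 0.028, adjusted p = 0.000982), *Erlec1* (-0.10 ± 0.032, adjusted p = 0.021) and *Fam8a1* (-0.10 ± 0.032, adjusted p = 0.0239) fell and none rose. The call of *Marchf6* with *gdf6Y* was lost without *gdf6Y* replicate 5 (adjusted p = 0.0504), and those of *Erlec1* and *Fam8a1* in 6 and 4 of 11 fits with 1 sample left out. Of 20 genes of transport between ER and Golgi, 5 fell and none rose with either insert, where 10.5% and 10.7% of abundant genes were called lower. The 5 with *gdf6Y* became 3 with filterByExpr, and the 5 with *del9* became 3 without EV replicate 1 or *del9* replicates 3 or 5, 8 without *del9* replicate 1 and 9 with library totals. The 3 strongest with *gdf6Y* were *Golgb1* (giantin), at -0.26 ± 0.034 (adjusted p = 2.34e-11), and the COPII coat genes *Sec16a* (-0.15 ± 0.03, adjusted p = 6.29e-05) and *Sec24d* (-0.14 ± 0.029, adjusted p = 0.000149). With DESeq2 the adjusted p was 0.0191 for *Golgb1*, 0.0354 for *Sec16a* and 0.00324 for *Sec24d*, and with filterByExpr *Sec16a* was not called (adjusted p = 0.0608). With *del9* they were *Golgb1* (-0.21 ± 0.032, adjusted p = 1.54e-08), *Sec24a* (-0.14 ± 0.032, adjusted p = 0.000689) and *Sec24d* (-0.11 ± 0.027, adjusted p = 0.00154).

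The list of 20 heat shock genes, most of them cytosolic, had 1 higher and 1 lower with *gdf6Y* and 5 higher and 1 lower with *del9*, where 15.1% of abundant genes were called higher. The 5 became 2 without *del9* replicate 5, with library totals or with the correction for gene length, and 3 with filterByExpr or without EV replicates 3 or 6. *Hspe1*, the mitochondrial cochaperonin, rose by 0.12 ± 0.03 (adjusted p = 0.00235) and 0.13 ± 0.029 (adjusted p = 0.000663), and with the correction for gene length neither was called (adjusted p = 0.171 and 0.161). *Ahsa1*, a cochaperone of Hsp90, rose with *del9* (0.12 ± 0.028, adjusted p = 0.000382), and *Dnajb1* was at 0.084 (adjusted p = 0.074) with *gdf6Y*. *Hspa4l*, a cytosolic Hsp110 relative, fell by 0.23 (adjusted p = 8.19e-13) and 0.22 (adjusted p = 9.69e-16) on the log2 scale, though its samples ranged from 12848 to 16826 with EV and from 11047 to 14948 with *gdf6Y*, and DESeq2 gave adjusted p of 0.153 and 0.0976.

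Between *gdf6Y* and *del9*, the strongest genes of the remaining lists stayed uncalled. They were *Fkbp14* (0.16, adjusted p = 0.13), *Tmx3* (0.075) and *Erp44* (0.066) of folding, and *Ssr3* (0.078, adjusted p = 0.233), *Sec62* (0.074) and *Ssr1* (0.033) of ER entry. In degradation and transport they were *Erlec1* (0.076), *Ngly1* (0.12), *Ufd1* (0.083), *Kdelr1* (0.088, adjusted p = 0.344), *Kdelr3* (0.07) and *Kdelr2* (0.061). *Sesn2* (-0.078) and *Chac1* (0.056) followed *Nupr1* in the PERK arm, and among heat shock genes *Dnajb4* (0.078) and *Ahsa1* (-0.043) were first, besides *Hspb1*, which had a normalized count of 0 in all *gdf6Y* samples and at most 2.03 in *del9* samples.

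**Figure D4:**
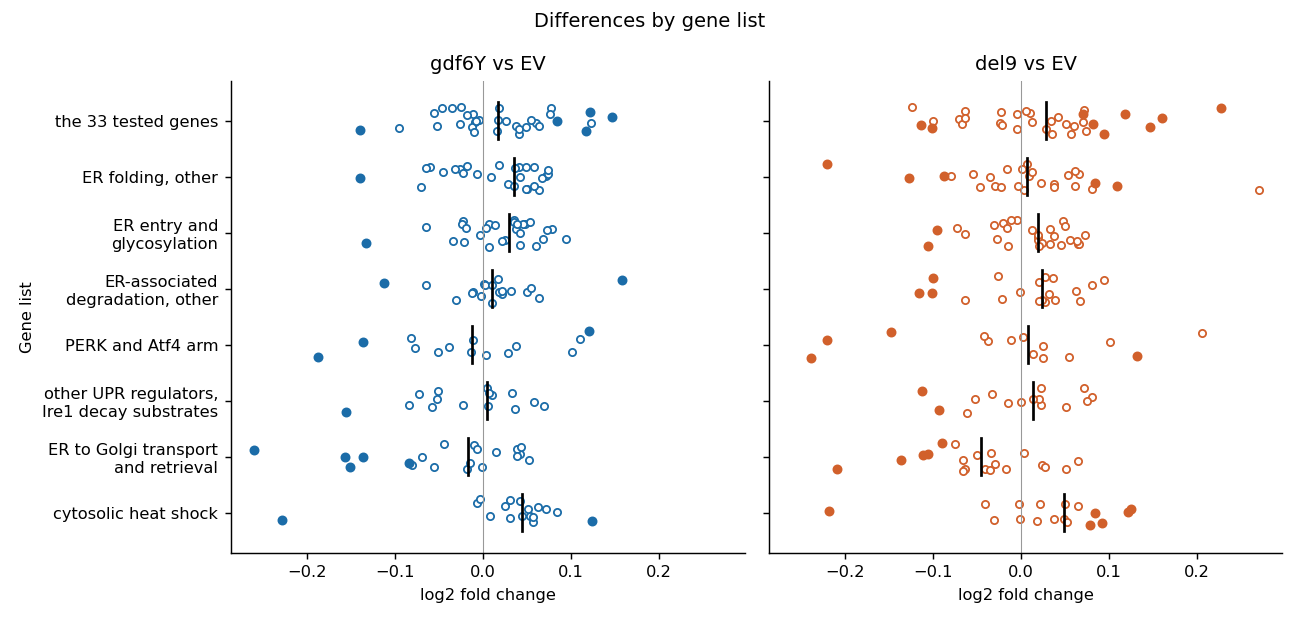
Log2 fold changes of the 33 tested genes and of the 7 other lists against EV, for genes with a mean normalized count of at least 10 in both groups in the lists. Filled points are called, open points are not, and black bars are medians of the points shown. The filled points of ER to Golgi transport lie to the left of 0 in both panels, and those of the 33 tested genes mostly to the right.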

How the data were processed

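RNA of TM4 cells was measured 24 h after transfection in 16 samples (EV 6, *gdf6Y* 5, *del9* 5). Per the labels and the study's methods, 300 ng of total RNA was used for poly(A)-selected, stranded libraries with molecular identifiers, and the authors mapped reads with STAR (2.7.10a) to GRCm39, collapsed PCR duplicates by UMI-tools and then counted uniquely mapped reads per Ensembl gene on the gene's strand with featureCounts (2.0.3), discarding reads that overlap several genes. The deposited values are these raw counts, and 0 of their columns were left unused for want of a sample. Per the paper's reporting summary, the authors left out *gdf6Y* replicate 6 and *del9* replicate 6 for fewer assigned reads and more duplicates. Neither is among the 16 samples. Counting does not separate isoforms, so splicing is not seen in them.

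Groups were compared pairwise with edgeR's quasi-likelihood test (edgeR 4.0.16 in R 4.3.3, legacy estimate, TMM factors 0.9886 to 1.012) over genes that had 1 count or more in some sample, without covariates, and p-values were adjusted by Benjamini-Hochberg over all genes. Genes were called at an adjusted p below 0.05, and the SE is the log2 fold change divided by the root of the F statistic. With so many low genes, the fit shrank dispersions almost fully to their trend (prior degrees of freedom 738 for *gdf6Y* vs EV and infinite for the others, against 9.57 to 10.9 with filterByExpr), so a gene's own spread hardly entered its p. The scripts were tested on simulated data in which every gene had the same dispersion, so that test does not speak for genes with a wide spread of their own. The members, the lists of other genes and the markers were chosen with earlier results of these data known. Named in full were *Hspa5*, *Creld2* and all members called in any comparison, the sensors with *Xbp1* in any case, and of each other list the 3 genes with the smallest adjusted p per comparison. Levels per kb use the Ensembl canonical transcript, and the correction for gene length uses all annotated exons of a gene, joined where they overlap.

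Alternatives were DESeq2 (1.42.0), DESeq2 size factors or library totals in edgeR, filterByExpr, a minimum of 10 counts per sample, 1 model for all groups, the edgeR 4 dispersion estimate, the replicate number as a block, a correction for gene length, both together, and leaving out each sample. Promoter windows came from a RefSeq table of GRCm38.p6 and were placed in GRCm39 by exact match. Protein sequences were not used here. Of the chosen Sertoli cell markers, 1 is not reported here.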

Additional observations from a re-analysis of the deposited data

Results flagged for a closer look

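In 4 of 105 groups of values (35 genes in 3 groups) the highest or lowest sample lay farther from the others than Dixon's 95% critical value allows, where chance flags about 1 in 20 groups, or 5.25. *Hspa5* was highest in *del9* replicate 1, at 47730 normalized counts against 45630 to 46200 in the other *del9* samples (ratio of gap to range 0.73). *Canx* was highest in *gdf6Y* replicate 4, at 23760 against 22260 to 22660 (0.735). *Derl2* was lowest in EV replicate 1, at 1245 against 1299 to 1325 (0.671). *Eif2ak3* was lowest in *del9* replicate 2, at 679 against 756 to 781 (0.756). Without *del9* replicate 1 all *del9* samples still had more *Hspa5* than all EV samples.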

How the results depend on the processing

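The counts of called genes among the 33 moved by over 1.5 times under several settings. For *gdf6Y* against EV, the count of higher genes did so in 5 of 21 alternatives and that of lower genes in 7. For *del9* against EV it was 1 and 7 of 21, and between *gdf6Y* and *del9* 2 and 0 of 20. With *gdf6Y* against EV, 4 were higher and 1 lower, against 7 higher with DESeq2 (*Calr*, *Dnajb11* and *Pdia4* added) and 2 lower with library totals. With *del9* against EV, 7 were higher and 2 lower, against 4 higher with the correction for gene length (*Dnajb11*, *Calr* and *Sec61b* lost), 4 lower with library totals, and 1 lower (*Edem3*) with all 3 groups in 1 model and with the edgeR 4 dispersion estimate. With 1 sample left out, 2 to 7 were higher and 1 to 3 lower for *gdf6Y* against EV, and 5 to 9 higher and 1 to 3 lower for *del9* against EV. Between *gdf6Y* and *del9*, 0 to 1 were higher and 0 lower, the 1 being *Ero1a* without *gdf6Y* replicate 2 or *del9* replicate 1. Calls kept in all 21 alternatives were *Manf*, *Atf6* and *Sec61b* with *gdf6Y* and *Sdf2l1*, *Manf*, *Herpud1* and *Edem3* with *del9*, both against EV. Over all genes, 155 were higher and 106 lower between *gdf6Y* and *del9*, against 48 and 33 with DESeq2, 26 and 19 with filterByExpr, 25 and 19 with a minimum of 10 counts per sample and 104 and 59 with the edgeR 4 estimate, and 94 to 243 and 66 to 198 with 1 sample left out. With *gdf6Y* against EV 448 were higher, against 235 to 718 with 1 sample left out. Among the 145 other genes, 3 were higher and 12 lower for *gdf6Y* against EV, against 8 lower with filterByExpr, and 8 higher for *del9* against EV, against 4 with library totals or the correction for gene length. The untested log2 fold changes of *Hspa5* ranged over all alternatives from 0.12 to 0.15 (*gdf6Y*) and 0.16 to 0.19 (*del9*) against EV, and those of *Creld2* from 0.20 to 0.27 and 0.28 to 0.35. Among the members, no log2 fold change of a called gene, nor those of *Hspa5* and *Creld2*, changed sign in these alternatives. The causes of these moves were not tested.

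The groups share replicate numbers, but over all genes same-numbered samples deviated together only weakly (correlations 0.041 to 0.195 for *gdf6Y* and EV, 0.0994 to 0.163 for *gdf6Y* and *del9*, -0.051 to 0.155 for *del9* and EV). The labels do not say what a number marks, so the numbers were not taken as pairs in the main fit. Some genes, *Ero1a* among them, did share an order of replicates between the groups, as given below. Whether the numbers mark a shared factor was not tested. With the replicate block, 8 were higher and 2 lower for *gdf6Y* against EV, 9 higher and 3 lower for *del9* against EV, and 0 of either kind between *gdf6Y* and *del9*. The genes added as higher were *Calr*, *P4hb*, *Pdia4* and *Sdf2l1* with *gdf6Y* and *P4hb* and *Pdia4* with *del9*, and those added as lower were *Edem3* with *gdf6Y* and *Atf6* with *del9*. With the replicate block and the correction for gene length together, 3 were lower for *gdf6Y* against EV. Over all genes, the block gave 912 higher and 1202 lower for *gdf6Y* against EV and 289 higher and 372 lower for *gdf6Y* against *del9*, and among the 145 other genes 11 higher and 14 lower for *gdf6Y* against EV and 16 higher and 24 lower for *del9* against EV.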

Other observations

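Of the 35 genes with counts, 4 (*P4hb*, *Ero1a*, *Derl1* and *Xbp1*) had replicates 1 and 4 highest and replicate 2 lowest in all 3 groups, as had 33 of 7422 genes (0.445%) with a mean normalized count of at least 500 in every group. For *Ero1a*, replicates 1 and 4 had normalized counts in EV of 6573 and 7190, in *gdf6Y* of 6529 and 6984 and in *del9* of 6626 and 6390, and replicate 2 was at 5240, 4596 and 4625. The pattern was chosen after its values were seen and was not tested.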
